A study of Mus musculus with 4 samples.

Results

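The expression of 10 inflammatory genes of myeloid cells was followed in the CD45+ immune cells of the mouse dura mater, after the cerebrospinal fluid had been exposed to a VEGF-C vector or to a control vector. The 10 genes are Il1a, Il1b, Il1rn, Tnf, Il18, Osm, Ptgs2, Nlrp3, Casp1 and Casp4. They were chosen by name, and each matched 1 row of the 55401 in the deposited expression tables. All 10 had enough reads to be tested. The mice were wild-type C57BL/6J males that received an adeno-associated virus of serotype 9 through the cisterna magna when they were 4 weeks old. AAV-mVEGF-C encodes the full-length mouse growth factor VEGF-C, which acts on lymphatic vessels. AAV-CTRL encodes a secreted part of its receptor VEGFR-3, fused to an immunoglobulin tail, that does not bind VEGF-C. Both groups therefore carried a vector, and no untreated animals were analysed here. Each library was made from CD45+ cells sorted from the pooled meninges of 10 to 12 mice, and the experiment was done 2 times per vector, which gives 4 libraries: AAV-CTRL 1 and 2, and AAV-mVEGF-C 1 and 2. The promoter that drives each vector and the age at which the cells were sorted are not given in the sources used here. A pool hides the spread between mice, so every SD given here is the spread between 2 pools, and each SE and interval comes from the edgeR fit, which borrows information on the spread from all genes.

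The genes work together in the first hours of inflammation. Interleukin-1α and interleukin-1β (Il1a, Il1b) signal through one receptor, and the receptor antagonist (Il1rn) occupies that receptor without signalling. Interleukin-1β and interleukin-18 (Il18) are made as inactive precursors, and the protease caspase-1 (Casp1) cuts both after it has been recruited to an inflammasome, for which NLRP3 (Nlrp3) is a sensor. Caspase-11, the product of mouse Casp4, detects bacterial lipopolysaccharide inside the cell and cuts gasdermin D, the protein that opens pores in the membrane. TNF (Tnf) and oncostatin M (Osm) are further secreted cytokines, and cyclooxygenase-2 (Ptgs2) starts the synthesis of prostaglandins. In neutrophils, monocytes and macrophages, transcription of many of these genes is induced through the NF-kB factors.

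The genes sit on 5 chromosomes of the mm10 build, by the GENCODE M21 annotation, and all are protein coding. Il1rn (chr2:24336853-24351494, plus strand), Il1b (chr2:129364570-129371139, minus strand) and Il1a (chr2:129299610-129309972, minus strand) share a chromosome, and 54597 bases separate Il1a from Il1b. Casp1 (chr9:5298517-5307265, plus strand) and Casp4 (chr9:5308828-5336783, plus strand) are direct neighbours, 1562 bases apart, and Il18 (chr9:50554827-50581840, plus strand) lies on the same chromosome. Osm (chr11:4236420-4241026, plus strand) and Nlrp3 (chr11:59541568-59566956, plus strand) are both on another. Ptgs2 (chr1:150100031-150108227, plus strand) and Tnf (chr17:35199381-35202007, minus strand) complete the group.

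The promoter windows of the 2 neighbouring pairs are shown because the members of each pair differed in what was measured: Il1a and Il1b in level, Casp1 and Casp4 in the direction of their difference between the vectors. Il1rn is shown as the gene with the largest difference. Each window holds 250 bases before and 50 bases after the transcription start of RefSeq on GRCm38.p6, read 5′ to 3′ along the gene, and such a window was present for 9 of the 10 genes (Osm had none). The capitals mark matches, on either strand, to the letters TATAAA or TGANTCA (the motif of AP-1, the Fos and Jun dimer) or to the NF-kB consensus; the letters TTGCNNAA, a motif of the C/EBP factors, were searched as well and had no match in these 5 windows.
Il1a, chr2:129309923-129310222, minus strand: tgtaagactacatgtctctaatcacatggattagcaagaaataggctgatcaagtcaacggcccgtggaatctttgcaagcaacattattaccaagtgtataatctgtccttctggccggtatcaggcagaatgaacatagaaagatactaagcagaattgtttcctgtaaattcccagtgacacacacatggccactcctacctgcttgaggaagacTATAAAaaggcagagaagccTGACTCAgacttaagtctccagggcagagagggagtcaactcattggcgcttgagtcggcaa
Il1b, chr2:129371090-129371389, minus strand: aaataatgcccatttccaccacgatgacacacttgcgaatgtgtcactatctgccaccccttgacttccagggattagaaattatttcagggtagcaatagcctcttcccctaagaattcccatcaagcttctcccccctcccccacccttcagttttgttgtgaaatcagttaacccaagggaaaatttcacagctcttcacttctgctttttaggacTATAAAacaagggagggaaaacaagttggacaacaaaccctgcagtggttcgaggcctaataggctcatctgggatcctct
Il1rn, chr2:24336610-24336909, plus strand: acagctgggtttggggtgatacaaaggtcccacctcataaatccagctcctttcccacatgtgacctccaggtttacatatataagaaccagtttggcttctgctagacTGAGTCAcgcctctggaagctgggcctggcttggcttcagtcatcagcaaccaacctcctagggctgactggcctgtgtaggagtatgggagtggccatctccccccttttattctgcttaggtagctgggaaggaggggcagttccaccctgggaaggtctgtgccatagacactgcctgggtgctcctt
Casp1, chr9:5298267-5298566, plus strand: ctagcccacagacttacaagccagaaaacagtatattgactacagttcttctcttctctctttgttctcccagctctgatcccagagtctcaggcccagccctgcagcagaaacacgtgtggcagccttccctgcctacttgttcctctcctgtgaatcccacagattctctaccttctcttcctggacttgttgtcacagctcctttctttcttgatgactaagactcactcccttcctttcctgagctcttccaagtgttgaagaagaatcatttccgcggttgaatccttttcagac
Casp4, chr9:5308599-5308898, plus strand: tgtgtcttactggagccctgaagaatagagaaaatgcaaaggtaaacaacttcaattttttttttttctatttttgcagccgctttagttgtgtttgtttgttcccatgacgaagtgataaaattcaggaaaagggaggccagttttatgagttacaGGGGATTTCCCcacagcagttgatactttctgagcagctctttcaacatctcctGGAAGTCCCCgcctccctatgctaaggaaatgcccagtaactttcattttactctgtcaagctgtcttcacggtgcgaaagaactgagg
In the Il1a window, TATAAA began 32 bases and TGANTCA 12 bases before the start, and in the Il1b window TATAAA began 31 bases before it. The Il1rn window, 1 of 3 that RefSeq gives for this gene, held TGANTCA 141 bases before the start. The Casp4 window, 1 of 2 in RefSeq and the one whose start is nearer to that of GENCODE, held 3 matches to the NF-kB consensus: 2 that overlap, at 93 and 92 bases before the start, and 1 at 39 bases before it. No match to any of the 4 motifs was found in the Casp1 window. Over all 32851 mouse windows of this length, TATAAA was present in 13.62%, TGANTCA in 7.81%, TTGCNNAA in 10.8% and the NF-kB consensus in 8.46%. These are matches of letters and not measured binding.

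The libraries held between 32520709 and 46409700 reads assigned to genes, and the 2 least covered of the 10 genes, Il18 and Il1a, had 142 to 257 and 167 to 364 reads. AAV-CTRL 1 stood apart from the rest: across genes its log2 read levels correlated with the other 3 libraries at r = 0.925 to 0.934, against 0.968 to 0.973 among those 3, and 20990 genes were detected in it against 29221 to 37512. Values of the 10 genes without this library are given beside their results. The leukocyte gene Ptprc, which encodes CD45, was at 945 to 1150 CPM (reads per 1000000 after TMM scaling) in all libraries. Markers of neutrophils, monocytes, macrophages, dendritic cells, mast cells and lymphocytes were all present, so the sorted cells were a mixture. In such a mixture, fewer cells of a type and less RNA per cell cannot be told apart.

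Il1b was by far the most abundant of the 10 transcripts. Its level per length, in transcripts per 1000000 (TPM), was 472 and 341 in the AAV-CTRL libraries and 350 and 483 in the AAV-mVEGF-C libraries, rank 191 of all genes by its mean. A single gene, Rn7s1, held 29.4% and 25.6% of all TPM with AAV-CTRL and 24.8% and 28.2% with AAV-mVEGF-C. The TPM levels, sums and differences of all other genes depend on that share. Of the summed TPM of the 10 genes, Il1b alone made up 59.5% to 67.5% in each library. Osm, with 42.4 to 60.8 TPM, was the next, followed by Nlrp3 (29.0 to 51.0 TPM), Il1rn (30.3 to 53.3 TPM) and Tnf (33.7 to 44.4 TPM). These 4 levels could not be ordered, because the ranges of neighbours in that order overlapped. Ptgs2 (25.6 to 32.4 TPM), Casp4 (15.03 to 20.6 TPM), Casp1 (8.60 to 12.1 TPM), Il18 (4.04 to 6.94 TPM) and Il1a (1.79 to 3.52 TPM) came below in that order. The range of Ptgs2 overlapped those of Nlrp3 and Il1rn but not that of Tnf, and from Ptgs2 down no range overlapped the next. Although Il1a and Il1b adjoin each other on the chromosome and act on the same receptor, the Il1b level was 138 to 196 times that of Il1a. The inactive precursor of interleukin-18 was thus encoded by one of the least abundant transcripts of the group and that of interleukin-1β by the most abundant.

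**Figure D1:**
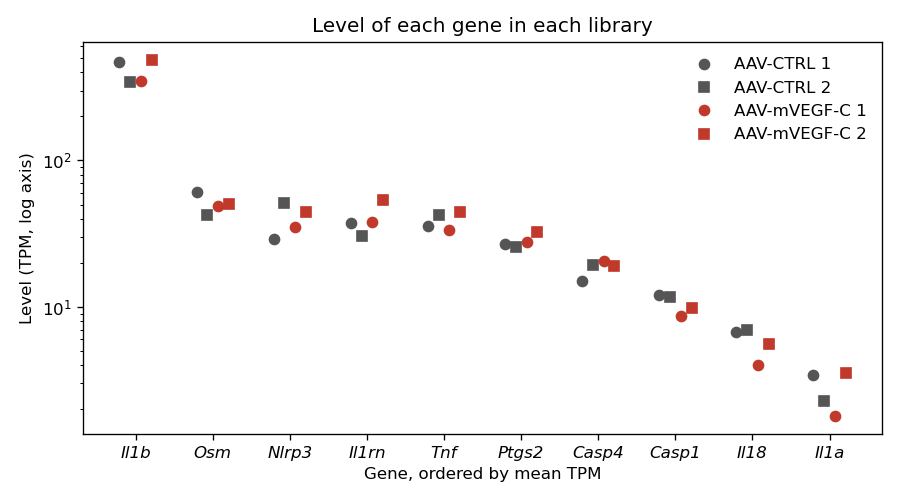
Level of each of the 10 genes in TPM (log axis) in the 4 libraries; circles are the first and squares the second library of a vector, grey AAV-CTRL and red AAV-mVEGF-C. Il1b lies between 341 and 483 TPM in all libraries, above every other gene, and Il1a lies lowest, at 1.79 to 3.52 TPM.

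None of the 10 genes differed between the vectors by more than the spread between pools, as the test across all genes measured it, and the largest differences were a higher Il1rn (fold 1.47) and a lower Il18 (fold 0.743) with AAV-mVEGF-C. The question was whether VEGF-C in the cerebrospinal fluid altered the expression of these genes in dural immune cells. In the quasi-likelihood test of edgeR, fitted on all 19806 testable genes, 0 of the 10 passed an adjusted p of 0.05 and 0 had an unadjusted p under 0.05. Of all tested genes, 0% passed the adjusted threshold and 2.64% (523 genes) had an unadjusted p under 0.05. DESeq2 called 77 genes of the whole table and limma-voom 0 (681 at an unadjusted p under 0.05), with 0 of the 10 past the adjusted threshold in either and Il1rn under an unadjusted p of 0.05 in both. A higher mean in AAV-mVEGF-C was seen for 8 of the 10 genes, but with TPM in place of reads 5 were higher and 5 lower, and without AAV-mVEGF-C 2 only 4 were higher. For 3 genes (Il1rn, Ptgs2, Casp4) both AAV-mVEGF-C libraries lay above both AAV-CTRL libraries, as for 16.8% of all tested genes. For 1 gene (Il18) both lay below, as for 15.2% of all tested genes, and the other 6 overlapped. In TPM, looked at after the CPM values, Il1rn and Ptgs2 kept the separation above and Il18 that below, Casp4 overlapped and Casp1 lay below. The median log2 difference was 0.13 over the 10 genes and 0.0034 over all tested genes. With log2(TPM + 1) the median of all tested genes moved down to -0.08, and counts with TPM are to be read against that shift. The median over the 10 was 0.013 with TPM, 0.30 without AAV-CTRL 1, 0.10 without AAV-CTRL 2, 0.31 without AAV-mVEGF-C 1 and -0.05 without AAV-mVEGF-C 2.

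**Figure D2:**
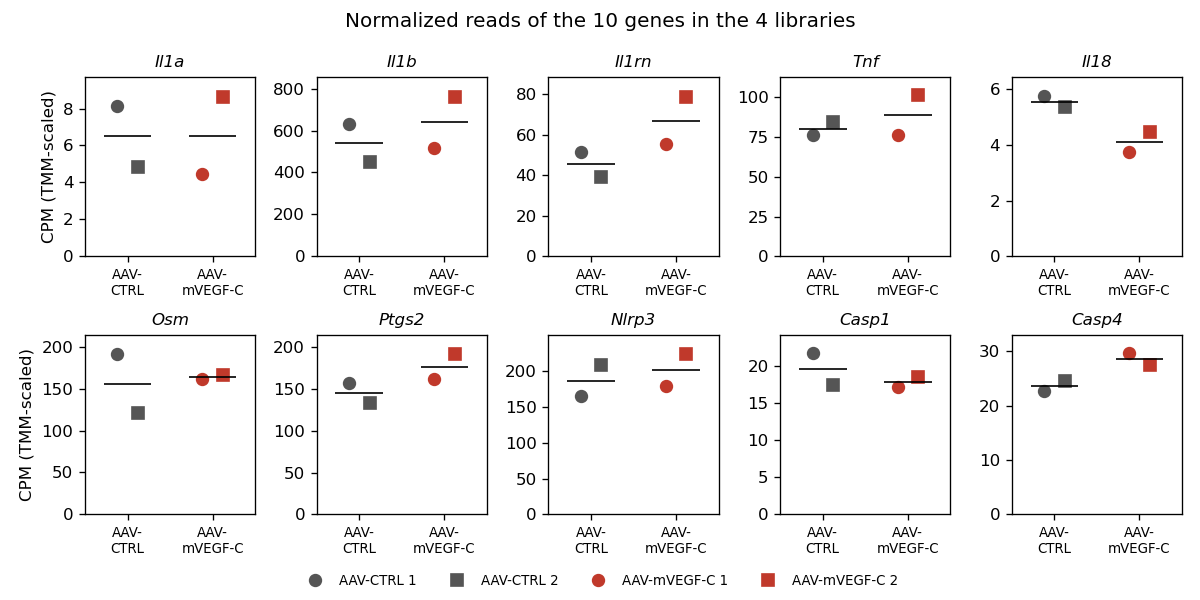
Reads per 1000000 after TMM scaling (CPM, linear axes from 0) of each gene in the 4 libraries; symbols as in the plot of TPM levels, and the bar is the mean of the 2 libraries of a vector. Il1rn, Ptgs2 and Casp4 have both AAV-mVEGF-C libraries above both AAV-CTRL libraries, Il18 has both below, and the other 6 genes overlap.

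The receptor antagonist Il1rn showed the largest difference. Its level was 51.7 CPM in AAV-CTRL 1, 39.4 CPM in AAV-CTRL 2, 55.4 CPM in AAV-mVEGF-C 1 and 78.5 CPM in AAV-mVEGF-C 2. The groups did not overlap, but AAV-mVEGF-C 1 was hardly above AAV-CTRL 1, and AAV-mVEGF-C 2 was well above the rest. The mean was 45.5 ± 8.68 CPM with AAV-CTRL against 66.9 ± 16.3 CPM with AAV-mVEGF-C (SD, n = 2 each). The fitted fold was 1.47 with a 95% interval of 0.988 to 2.19, or 0.56 ± 0.24 (SE) on the log2 scale, and edgeR gave an unadjusted p of 0.0556 and an adjusted p of 0.999. Leaving out AAV-CTRL 1 raised the log2 difference to 0.75 (adjusted p = 0.0629 in the same edgeR test) and leaving out AAV-mVEGF-C 2 lowered it to 0.29. In every such fit the vector with 1 library left has no spread of its own and is assumed to vary like the other vector's pools, so these p-values are weaker evidence than those from all 4 libraries. The direction was the same in all 15 alternative settings, with no adjusted p-value under 0.0629. The unadjusted p of Il1rn was under 0.05 in 8 of these 15, among them DESeq2 (0.0366) and limma-voom (0.0468).

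The agonist Il1b read 633 and 448 CPM in the AAV-CTRL pools against 517 and 761 CPM in the AAV-mVEGF-C pools. One library of each vector was high and one low, and the groups overlapped. The log2 difference was 0.24 ± 0.26 (SE), with a 95% interval for the fold from 0.759 to 1.84, and it was 0.50 without AAV-CTRL 1 (edgeR with 1 AAV-CTRL library, unadjusted p = 0.0424, adjusted p = 0.589) and -0.06 without AAV-mVEGF-C 2. Il1a, whose product is active without cleavage and is largely kept in or on the cell, read 8.14 and 4.85 CPM in the AAV-CTRL pools against 4.47 and 8.61 CPM in the AAV-mVEGF-C pools. Its group means were nearly the same (log2 difference 0.007 ± 0.44 SE), but its interval was the widest of the 10, from a fold of 0.475 to 2.13. The sign of the Il1a difference turned in 9 of 15 alternative settings, and the difference was 0.41 without AAV-CTRL 1, -0.31 without AAV-CTRL 2 and -0.53 without AAV-mVEGF-C 2.

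Set against its agonists within each library, Il1rn was higher in both AAV-mVEGF-C libraries. Its TPM equalled 7.82% and 8.81% of the summed TPM of Il1a and Il1b with AAV-CTRL (libraries 1 and 2), against 10.80% and 10.95% with AAV-mVEGF-C. The pools of each vector were thus closer to each other in this ratio than in the level of Il1rn itself, and the groups did not overlap. The means were 8.32% ± 0.698 and 10.9% ± 0.110 (SD, n = 2 each, exact two-sided permutation test, p = 0.333, which is the smallest p that 2 against 2 libraries allow). On the log2 scale the ratio differed by 0.39 with TPM, by 0.31 with CPM and by 0.30 (without AAV-CTRL 1) to 0.48 when 1 library was left out. In every library, transcripts of the agonists far outnumbered those of the antagonist.

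**Figure D3:**
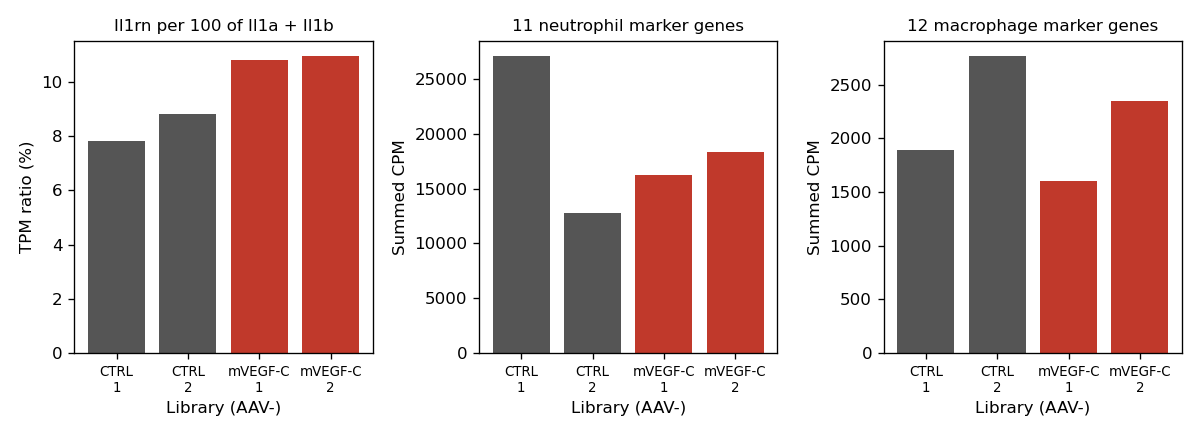
Left, TPM of Il1rn as a percentage of the summed TPM of Il1a and Il1b in each library. Middle and right, summed CPM of 11 neutrophil and 12 macrophage marker genes. The ratio is 7.82% and 8.81% with AAV-CTRL against 10.80% and 10.95% with AAV-mVEGF-C. The neutrophil sum is highest in AAV-CTRL 1 and lowest in AAV-CTRL 2. Of its genes, Csf3r and Retnlg alone had both AAV-mVEGF-C libraries above both AAV-CTRL libraries in CPM, and the other genes overlapped.

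Il18 was the one gene with both AAV-mVEGF-C libraries below both AAV-CTRL libraries. It read 5.74 and 5.34 CPM in the AAV-CTRL pools against 3.75 and 4.48 CPM in the AAV-mVEGF-C pools, from 142 to 257 reads. The means were 5.54 ± 0.284 and 4.11 ± 0.511 CPM (SD, n = 2 each). Its fold was 0.743 with a 95% interval of 0.427 to 1.29 and an unadjusted p of 0.237 in edgeR. The log2 difference stayed below 0 in all 15 alternatives, between -0.55 and -0.30, and was -0.39 without AAV-CTRL 1. Il18 is also made by cells other than leukocytes, such as epithelial cells, and the 6 fibroblast markers, which stand for cells outside the CD45+ gate, were lower in AAV-mVEGF-C too (summed CPM 653 and 1041 against 353 and 549). Whether those cells had a part in the Il18 values was not tested.

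Tnf, an early product of activated macrophages, mast cells and T cells, read 76.2 and 84.0 CPM in the AAV-CTRL pools against 76.0 and 100.9 CPM in the AAV-mVEGF-C pools. AAV-mVEGF-C 2 was the highest, and the other 3 libraries were close together. The interval of its fold ran from 0.802 to 1.52 (log2 difference 0.14 ± 0.19 SE). The Tnf difference was -0.01 with TPM, 0.06 without AAV-CTRL 1 and -0.07 without AAV-mVEGF-C 2. Osm, a cytokine of the interleukin-6 family made by neutrophils and macrophages, read 191 and 120 CPM in the AAV-CTRL pools against 162 and 166 CPM in the AAV-mVEGF-C pools. Its AAV-CTRL libraries lay on either side of the AAV-mVEGF-C libraries, which nearly coincided. The Osm fold had an interval of 0.704 to 1.58, and its log2 difference of 0.07 ± 0.24 (SE) became -0.03 with TPM, 0.43 without AAV-CTRL 1 (edgeR with 1 AAV-CTRL library, unadjusted p = 0.0297, adjusted p = 0.493) and -0.21 without AAV-CTRL 2.

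Ptgs2, the inducible cyclooxygenase, read 156 and 133 CPM in the AAV-CTRL pools against 161 and 191 CPM in the AAV-mVEGF-C pools. The groups did not overlap, but AAV-mVEGF-C 1 exceeded AAV-CTRL 1 by little. The means were 145 ± 16.4 and 176 ± 21.4 CPM (SD, n = 2 each), and the fold was 1.22 with an interval of 0.907 to 1.64 (edgeR, unadjusted p = 0.153). All 15 alternatives kept its sign, between 0.16 and 0.41 on the log2 scale, with 0.39 without AAV-CTRL 1.

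Of the inflammasome genes, the sensor Nlrp3 read 164 and 208 CPM in the AAV-CTRL pools against 179 and 224 CPM in the AAV-mVEGF-C pools. Within each vector the second library was higher, and the groups overlapped. Its log2 difference was 0.12 ± 0.20 (SE), with an interval of the fold from 0.776 to 1.51, and it was -0.06 without AAV-CTRL 1 and -0.04 without AAV-mVEGF-C 2. Casp1 read 21.7 and 17.4 CPM in the AAV-CTRL pools against 17.2 and 18.4 CPM in the AAV-mVEGF-C pools. Only AAV-CTRL 1 was apart from the rest, and without it the log2 difference went from -0.13 ± 0.21 (SE) to 0.01. With TPM both AAV-mVEGF-C libraries (8.60 and 9.90) were below both AAV-CTRL libraries (12.1 and 11.7), and the log2 difference was -0.33 with a pseudocount of 1.

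Casp4, next to Casp1 on the chromosome, read 22.6 and 24.4 CPM in the AAV-CTRL pools against 29.6 and 27.4 CPM in the AAV-mVEGF-C pools. Here the pools of a vector were close together and the groups did not overlap. The means were 23.5 ± 1.29 and 28.5 ± 1.55 CPM (SD, n = 2 each), and the fold was 1.21 with an interval of 0.9005 to 1.63 (edgeR, unadjusted p = 0.164). In TPM, AAV-CTRL 2 (19.3) and AAV-mVEGF-C 2 (19.1) were level, so the separation of Casp4 held on the CPM scale and not per length. The log2 difference stayed above 0 in all 15 alternatives, between 0.21 (without AAV-CTRL 1) and 0.34.

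Intervals of all 10 differences included 0 on the log2 scale. Across the 10 genes they ran from a fold of 0.427 (the lower bound of Il18) to 2.19 (the upper bound of Il1rn). The genes with the tightest intervals, Ptgs2 and Casp4, had intervals that together reached from 0.9005 to 1.64-fold. The summed TPM of the 10 genes was 698 and 573 with AAV-CTRL against 569 and 747 with AAV-mVEGF-C. Both vectors had a high and a low library, and the group means differed by 22.2 TPM (exact two-sided permutation test, n = 2 each, p = 1). That difference was 84.8 TPM without AAV-CTRL 1, -40.4 TPM without AAV-CTRL 2 and -66.5 TPM without AAV-mVEGF-C 2.

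**Figure D4:**
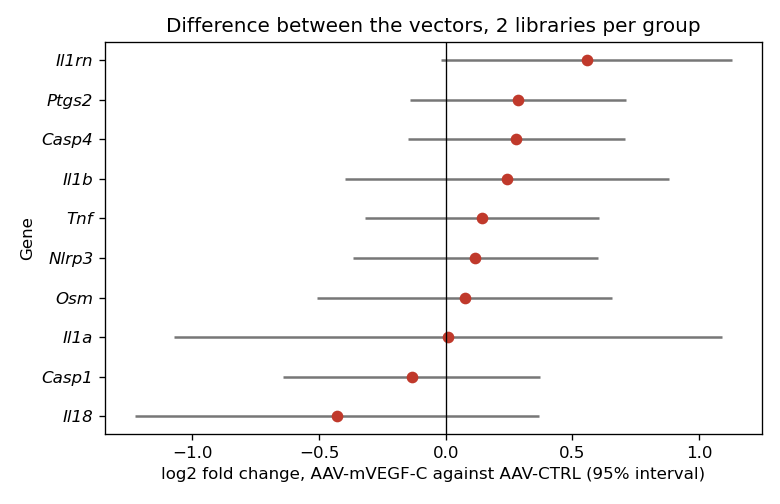
Log2 fold change of each gene, AAV-mVEGF-C against AAV-CTRL, with its 95% interval from edgeR (2 libraries per vector); values right of 0 are higher in AAV-mVEGF-C. All 10 intervals cross 0, Il1rn lies highest at 0.56 and Il18 lowest at -0.43.

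Marker levels of the cell types that make these cytokines differed between libraries of the same vector, and for part of the markers the vectors did not overlap. The summed CPM of 11 neutrophil markers, among them S100a8, S100a9 and Ngp, was 27090 and 12733 with AAV-CTRL against 16248 and 18338 with AAV-mVEGF-C. In AAV-CTRL 1, Ngp (10593 CPM), Ltf (5854 CPM) and S100a9 (5693 CPM) made up most of that sum. AAV-CTRL 2, the library with the lowest neutrophil sum, also had the lowest Il1b, Il1rn, Osm and Ptgs2. The highest neutrophil sum, in AAV-CTRL 1, went with the highest Osm but not with the highest Il1b, Il1rn or Ptgs2, which were in AAV-mVEGF-C 2, and Il1a was lowest in AAV-mVEGF-C 1 and Nlrp3 in AAV-CTRL 1. Of the 11 markers, 8 had a higher mean in AAV-mVEGF-C (5 with TPM), yet without AAV-CTRL 1 all 11 were higher, and without AAV-CTRL 2 only 2 were. Csf3r (209 and 162 against 243 and 280 CPM) and Retnlg (302 and 193 against 318 and 343 CPM) lay above without overlap. In TPM only Csf3r did so, and the other neutrophil markers overlapped on both scales. The 8 monocyte markers summed to 2523 and 1576 CPM with AAV-CTRL against 1809 and 1867 CPM with AAV-mVEGF-C, with 4 higher (0 with TPM). Of these, 2 (Ccr2 and F13a1) lay below without overlap in CPM and in TPM, and the other monocyte markers overlapped. The 12 macrophage markers summed to 1889 and 2768 against 1600 and 2353 CPM, and all 12 were lower in AAV-mVEGF-C, with the groups overlapping for each. Without AAV-CTRL 2, 10 of the 12 were higher. Over all tested genes, 16.8% lay above and 15.2% below without overlap. Dendritic cell markers were higher in 7 of 8, 5 without overlap (381 and 440 against 448 and 468 CPM). In TPM 4 stayed separated, and the summed levels overlapped (133 and 179 against 155 and 164 TPM). Mast cell markers were lower in 7 of 8 (2567 and 1779 against 1621 and 1700 CPM), 6 without overlap in CPM and in TPM. Without AAV-CTRL 1, 6 mast cell markers were lower and 2 higher, and their median log2 difference went from -0.59 to -0.29. T cell markers were higher in 4 of 5, 2 without overlap (201 and 171 against 221 and 220 CPM). The 5 erythroid markers, of cells outside the gate, were all lower without overlap (119 and 148 against 26.5 and 48.8 CPM, median log2 difference -1.81). None of these markers was at 0 in all libraries, and none passed the adjusted threshold. The part of these cell types in the values of the 10 genes was not tested.

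Across the 4 libraries, the 5 genes nearest to Il1b in pattern were Fam110a (distance 0.137), Acod1 (0.145), Rabgef1 (0.155), Slc2a1 (0.159) and Pdcd1 (0.163), where the distance is Euclidean over 4 values of log2 CPM centred on their mean, among 9336 genes with at least 10 CPM on average. Acod1 encodes the enzyme that makes itaconate in activated macrophages, and Slc2a1 a glucose transporter. Acod1 read 72.7 and 57.4 CPM in the AAV-CTRL pools against 65.7 and 99.4 CPM in the AAV-mVEGF-C pools, high and low in the same libraries as Il1b. Of the other inflammatory genes, Ptgs2 (distance 0.294, rank 68) and Il1rn (0.323, rank 108) came nearest to Il1b, and Nlrp3 and Casp4 were far down the order, at ranks 4588 and 4923. With only 4 libraries many genes can share a pattern, and no test was made.

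Among the receptors and inhibitors of these cytokines no gene passed the threshold either. Of 13 tested, 8 had a higher and 5 a lower mean in AAV-mVEGF-C (6 and 7 with TPM), 2 lay above and 2 below without overlap, and 0 passed. The median log2 difference was 0.06, against 0.0034 over all tested genes, and for this and the lists that follow, 16.8% of all tested genes lay above and 15.2% below without overlap. The median of the receptors and inhibitors was 0.16 without AAV-CTRL 1, 0.02 without AAV-mVEGF-C 1 and -0.03 without AAV-CTRL 2 (5 higher and 8 lower). Il1r2, the decoy receptor of interleukin-1 and the most abundant of the list per length, read 107 and 60.2 CPM in the AAV-CTRL pools against 87.3 and 108 CPM in the AAV-mVEGF-C pools. Like Il1b, it overlapped between the vectors. Tnfrsf1b, the second TNF receptor, was at 174 and 207 against 211 and 256 CPM (log2 difference 0.30 ± 0.18 SE). Il18bp, the secreted inhibitor of interleukin-18, was at 5.39 and 6.59 against 9.17 and 7.06 CPM (0.44 ± 0.31 SE). Osmr, the receptor subunit specific to oncostatin M, was at 3.91 and 3.11 against 2.35 and 1.73 CPM (-0.78 ± 0.44 SE). In TPM all 3 overlapped between the vectors, and the Osmr means were nearly equal (0.561 and 0.512 TPM), so their separation held in CPM only. Osmr is mainly a gene of stromal cells, and the fibroblast markers were lower in AAV-mVEGF-C too (summed CPM 653 and 1041 against 353 and 549). Within each vector, however, library 1 had the higher Osmr and the lower fibroblast sum. The part of stromal cells in the Osmr values was not tested.

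Further genes of the inflammasome and of pyroptosis were more often lower than higher in AAV-mVEGF-C, by little. Of 17 tested, 7 were higher and 10 lower (5 and 12 with TPM; 9 and 8 without AAV-CTRL 1), 2 lay above and 3 below without overlap (1 and 8 in TPM), 0 passed, and the median was -0.07. Txnip, a thioredoxin-binding protein and the most abundant of the list, read 652 and 497 CPM in the AAV-CTRL pools against 509 and 523 CPM in the AAV-mVEGF-C pools. Its high value in AAV-CTRL 1 set that library apart from the other 3. Casp8, a protease that can also cut pro-interleukin-1β, was at 84.5 and 71.0 against 69.0 and 66.2 CPM (-0.20 ± 0.16 SE). Gsdme, a relative of gasdermin D, was at 18.6 and 14.9 against 20.7 and 19.7 CPM (0.27 ± 0.21 SE). Nlrp1b, another inflammasome sensor that overlapped in TPM, was at 23.1 and 30.8 against 33.3 and 31.9 CPM (0.28 ± 0.20 SE). Paralogs of the Nlrp1 and Naip families share sequence, so reads may be split between them.

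Among 17 other enzymes and receptors of prostaglandin and leukotriene metabolism, 6 genes were higher and 11 lower, 2 lay above and 5 below without overlap, the median was -0.14 and 0 passed the adjusted threshold. Without AAV-CTRL 2 the list had 8 genes higher and 9 lower with a median of -0.04, without AAV-CTRL 1 the median was -0.09, and with TPM it was -0.03. In edgeR 2 of the 17 had an unadjusted p under 0.05, as had 2.64% of all tested genes, and both were lower in AAV-mVEGF-C. Ptgis, prostacyclin synthase, was at 3.67 and 5.17 against 1.56 and 1.70 CPM (-1.44 ± 0.43 SE, unadjusted p = 0.0147). Ptgds, a prostaglandin D synthase, was at 13.2 and 14.1 against 7.35 and 8.76 CPM (-0.76 ± 0.24 SE, unadjusted p = 0.0203). Both enzymes are known from vessel wall or leptomeningeal cells. All 6 fibroblast markers were lower in AAV-mVEGF-C as well, 5 of them without overlap and with a median of -0.92 (-0.49 without AAV-CTRL 2). Of 6 endothelial markers (summed CPM 64.9 and 75.5 against 56.1 and 57.0) 4 were lower, 3 of them without overlap (Kdr, Cdh5 and Pecam1). Prox1 and Flt4 were higher, and Prox1 lay above without overlap, at 0.335 and 0.377 against 0.996 and 0.820 CPM. Without AAV-CTRL 2 the endothelial median went from -0.38 to 0.35, with 3 markers higher and 3 lower. The part of these cells in the values of Ptgis and Ptgds was not tested. The most abundant gene of the list, Alox5ap, which presents arachidonate for leukotriene synthesis, was at 263 and 136 against 187 and 194 CPM. Its AAV-CTRL libraries enclosed the AAV-mVEGF-C libraries, as for Osm. Alox15, a lipoxygenase of eosinophils and macrophages, was at 51.1 and 21.5 against 54.4 and 61.0 CPM (0.67 ± 0.39 SE), with the low value in AAV-CTRL 2 alone.

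Genes of NF-kB and MyD88 signalling were mostly higher in AAV-mVEGF-C, though by little. Of 23 tested, 19 had a higher and 4 a lower mean, 10 lay above and 0 below without overlap, the median was 0.18, and 0 passed (lowest unadjusted p 0.109 in edgeR). When 1 library was left out, 18 to 20 of the 23 were higher and the median ranged from 0.10 without AAV-CTRL 1 to 0.32 without AAV-CTRL 2. With TPM 17 were higher and the median was 0.05, and of the 10 genes separated in CPM only Bcl3 and Tnfaip3 were still separated, while Traf6 and Irak3 lay below. Zfp36, which encodes the protein that destabilises Tnf mRNA, had the highest mean level per length (above Tnfaip3 in 2 of the 4 libraries), and was at 852 and 1310 CPM with AAV-CTRL against 1066 and 1342 CPM with AAV-mVEGF-C, and its groups overlapped. Zc3h12a, an endonuclease that degrades cytokine mRNAs, was at 91.8 and 124 against 125 and 162 CPM (0.41 ± 0.22 SE). Relb, an NF-kB subunit, was at 35.3 and 50.7 against 51.4 and 64.3 CPM (0.43 ± 0.23 SE). Tnfaip3, a feedback inhibitor of NF-kB, was at 1458 and 1457 against 1675 and 1933 CPM (0.31 ± 0.17 SE). Of these 4, Zc3h12a and Relb were separated in CPM by a narrow margin between AAV-CTRL 2 and AAV-mVEGF-C 1 and overlapped in TPM, and Tnfaip3 was separated on both scales.

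Other cytokines of the same cells were divided. Of the 14 tested, 8 were higher and 6 lower, 4 lay above and 1 below without overlap, and 0 passed, with a median of 0.07 (-0.10 without AAV-CTRL 1, 0.17 without AAV-CTRL 2 or AAV-mVEGF-C 1, and -0.07 without AAV-mVEGF-C 2). Tgfb1, the most abundant, was at 188 and 252 against 202 and 239 CPM with nearly equal means (log2 difference 0.006 ± 0.20 SE). Il6, a target of NF-kB, was at 6.55 and 8.39 against 10.0 and 11.1 CPM (0.50 ± 0.27 SE, unadjusted p = 0.113). Il27, at 0.849 and 0.987 against 1.12 and 1.54 CPM, and Il23a, at 1.72 and 0.436 against 1.76 and 1.99 CPM, rested on 15 to 77 reads in each library. The large log2 difference of Il23a (0.79 ± 0.78 SE) came with its low value in AAV-CTRL 2 alone, and of the 4 cytokines above in CPM only Il6 was also above in TPM.

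Immediate early and heat shock genes, which respond to tissue dissociation as well as to stimulation, were abundant in every library. Fos, a subunit of AP-1, read 1705 and 2127 CPM in the AAV-CTRL pools against 2034 and 2180 CPM in the AAV-mVEGF-C pools. Of 19 tested, 17 were higher and 2 lower in AAV-mVEGF-C, but 1 lay above without overlap (Dusp1, a phosphatase of MAP kinases, which overlapped in TPM, at 807 and 706 against 829 and 885 CPM), 0 passed, and the median was 0.14. With TPM 8 were higher and 11 lower, with a median of -0.03 that was still above the -0.08 of all tested genes on that scale. The count also depended on the libraries: 6 were higher and 13 lower without AAV-CTRL 1, and 9 were higher and 10 lower without AAV-mVEGF-C 2. It was 18 higher and 1 lower without AAV-CTRL 2, and 19 higher and 0 lower without AAV-mVEGF-C 1. The median ranged from -0.07 without AAV-CTRL 1 to 0.37 without AAV-CTRL 2. The part of dissociation in the level of Il1b, Tnf or Ptgs2 was not tested.

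**Figure D5:**
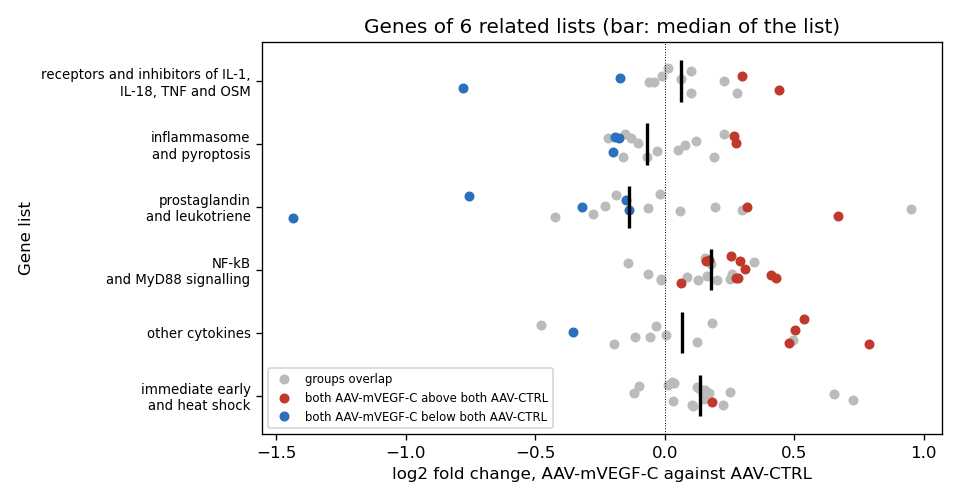
Log2 fold change, AAV-mVEGF-C against AAV-CTRL, of each tested gene in the 6 related lists; red and blue points have both AAV-mVEGF-C libraries above or below both AAV-CTRL libraries, grey points overlap, and the black bar is the median of the list. Medians lie between -0.14 (prostaglandin and leukotriene) and 0.18 (NF-kB and MyD88 signalling), and Ptgis lies lowest, at -1.44.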

How the data were processed

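RNA of sorted dural CD45+ cells had been made into libraries with the SMARTer Stranded Total RNA-Seq Kit v3 and sequenced on an Illumina instrument. FastQC, Trimmomatic, DRAGEN, Picard and the mm10 build are named in the submitters' processing notes, and the counting program, its strand setting and the annotation are not given in the sources used here. The authors deposited 1 table of estimated counts (8.18% of the read values are not whole numbers) and 1 table of TPM, which the authors scaled to gene length and to a total of 1000000 per library. Of 55401 identifiers, 54349 occur with the same version in GENCODE M21; for Casp1 the version differs.

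Estimated counts were rounded and tested across all genes with the edgeR 4.0.16 quasi-likelihood test (TMM, filterByExpr, no covariate, Benjamini-Hochberg over 19806 genes, threshold 0.05) in R 4.3.3. This procedure was tested on simulated data whose planted changes were larger than any difference found for the 10 genes. That test does not bear on differences of their size. Depth was 32520709 to 46409700 reads per library. Libraries were grouped by their labelled vector. Each library is a pool from a repeated experiment, and p-values measure the spread between these pools. Ratios and sums of TPM were compared by exact permutation tests. DESeq2 1.42.0 (which the study names), limma 3.58.1 (voom, or log2(TPM + 1) and log2(TPM + 0.1)), other filters and scalings, a replicate block and leaving out each library were alternatives. The 10 genes, the 6 related lists and the marker lists were chosen with earlier results of these data known. Beside the 10 genes, the text names the most abundant gene of each list, the 3 with the largest difference among those whose groups do not overlap, and the 5 genes nearest to Il1b. Ptgs2, Il1rn, Nlrp3 and Casp4 as neighbours of Il1b, and the marker genes, were named outside that rule. Promoter windows come from RefSeq.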

Additional observations from a re-analysis of the deposited data

How the results depend on the processing

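Il1rn, Ptgs2, Casp4 and Il18 kept their direction in all 15 alternatives. These are the genes whose groups did not overlap in CPM, so leaving out 1 library could hardly turn their direction. The agreement, here and in the paragraphs on each gene, adds little to that separation. Of the 10 genes, 0 passed an adjusted p of 0.05 in any alternative that kept every library. The count over all tested genes, 0 in edgeR, was 77 with DESeq2 (854 at an unadjusted p under 0.05), 268 without a filter, 11 with the replicate block and 54 with the numbers crossed, and 2 to 2058 when 1 library was left out. The experiment numbers in the sample titles and those in the column labels do not pair the libraries alike. Deviations of same-numbered libraries correlated at -0.13 over genes, at -0.04 with log2(CPM + 1) and at -0.41 over the 10 genes. Each vector gives only the difference between its 2 libraries, so these values cannot tell which libraries belong together. The block is therefore an alternative only. The crossed pairing and edgeR with legacy = FALSE were chosen after seeing the data. With the replicate block, the log2 difference of Il1a was -0.019, and the other 9 genes kept their direction. Il1a was also below 0 with limma-voom (-0.092), without a filter (-0.0030), with TPM (-0.10 and -0.14 for pseudocounts of 1 and 0.1), with the crossed block (-0.016) and with legacy = FALSE (-0.025). With TPM, Tnf was at -0.010 and -0.011 and Osm at -0.030 and -0.031 for those pseudocounts.

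Leaving out 1 library at a time gave -0.53 to 0.41 for Il1a, -0.057 to 0.50 for Il1b, -0.066 to 0.34 for Tnf, -0.21 to 0.43 for Osm, -0.059 to 0.31 for Nlrp3, -0.27 to 0.014 for Casp1 and -66.5 to 110.9 TPM for the summed level. The median ranged from -0.11 to 0.0052 for the inflammasome list and from 0.10 to 0.32 for NF-kB and MyD88 signalling. The cause was not tested. With log2(TPM + 0.1) the median of all genes was -0.11, and without AAV-CTRL 2 it was 0.13. With 2 pools per vector the intervals are as wide as given; Il1b was covered by at least 15420 reads in each library and Il1a by at least 167, and the part of depth in their intervals was not tested.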

Other observations

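The adjoining genes Casp1 and Casp4 had opposite differences, and their ratio was computed after their values had been seen. Casp1 in TPM was 0.806 and 0.607 times Casp4 in AAV-CTRL 1 and 2, and 0.417 and 0.519 times in AAV-mVEGF-C 1 and 2. This restates the directions that prompted it and carries no test, and the Casp1 difference was 0.01 without AAV-CTRL 1. The reads behind 1 TPM, relative to the library, varied for Nlrp3 between 1.46 in AAV-CTRL 2 and 1.82 in AAV-CTRL 1, a 1.24-fold range against a median of 1.14 over 11770 genes, and for Casp1 over a 1.15-fold range. For Il1a this range was 1.01-fold and for Osm 1.02-fold.

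The ratio of Il1b to Tnf in TPM was 13.2 and 8.02 in AAV-CTRL and 10.4 and 10.9 in AAV-mVEGF-C, with nearly equal means (exact permutation test, n = 2 each, p = 1).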
